A study of Homo sapiens with 4 samples.

Results

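The 52 genes described here build the mitotic spindle, compact and separate the chromosomes and divide the cell. They were taken as a named list from the 26475 gene symbols counted in 4 RNA-seq libraries, and all 52 were among the 15204 genes that had at least 10 reads in at least 1 library. The libraries came from mammospheres, which are spheres grown in suspension, of MDA-MB-468, an established triple-negative breast carcinoma cell line. The study asked what loss of TCOF1, a nucleolar protein known for its part in ribosome production, does to the RNA of these spheres.

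Lentivirus gave the cells a Cas9 nuclease marked by mCherry and a guide cassette marked by green fluorescent protein and switched on by doxycycline, and cells positive for both markers were sorted as a pool. CTL and CTL+dox are the control cells without and with doxycycline. gRNA2 and gRNA2+dox carry a guide to TCOF1, without and with doxycycline. The labels call CTL, CTL+dox and gRNA2 wild type and give gRNA2+dox as the TCOF1 knockout. All 4 conditions share the nuclease, the sorting and the sphere culture, and each gave 1 library, so that the variation between cultures was not measured. A sorted pool can hold cells with different edits and unedited cells.

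A cell enters mitosis when cyclin B and its kinase CDK1 become active, after CDC25 phosphatases remove the phosphates that hold the kinase back. Kinesin motors and microtubule-binding proteins then build the spindle, condensin compacts the chromosomes, and the anaphase-promoting complex with CDC20 releases the sister chromatids, after which a contractile ring cuts the cell apart. The genes for these steps are transcribed mostly late in the cell cycle, and many are known to carry in their promoters a CCAAT box, bound by NF-Y, and a cell cycle homology region (CHR), bound by MuvB complexes such as DREAM.

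Promoters are shown for DLGAP5, PLK1, KIF20A, KIF23 and ASPM, which were among the members called lower in gRNA2+dox, for CCNB2, whose promoter holds several CCAAT boxes and a CHR, and for TACC3, whose printed stretch holds neither. Each stretch ends at the annotated start, from the RefSeq promoter table for GRCh38.p14, written 5′ to 3′ along the gene. Capitals mark CCAAT, its reverse complement ATTGG, and the CHR letters TTTGAA or TTCGAA with the reverse complement TTCAAA. The positions are DLGAP5, chr14:55191586-55191730 on the reverse strand; PLK1, chr16:23678744-23678888 on the forward strand; KIF20A, chr5:138178967-138179111 on the forward strand; KIF23, chr15:69414204-69414348 on the forward strand; ASPM, chr1:197146670-197146814 on the reverse strand; CCNB2, chr15:59105001-59105145 on the forward strand; and TACC3, chr4:1720486-1720630 on the forward strand.
DLGAP5: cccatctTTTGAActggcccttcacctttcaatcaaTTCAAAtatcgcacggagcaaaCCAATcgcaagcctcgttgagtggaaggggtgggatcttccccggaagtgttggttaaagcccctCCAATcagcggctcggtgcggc
PLK1: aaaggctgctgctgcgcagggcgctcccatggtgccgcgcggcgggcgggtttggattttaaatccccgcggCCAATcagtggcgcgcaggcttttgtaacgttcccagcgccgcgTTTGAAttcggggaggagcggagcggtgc
KIF20A: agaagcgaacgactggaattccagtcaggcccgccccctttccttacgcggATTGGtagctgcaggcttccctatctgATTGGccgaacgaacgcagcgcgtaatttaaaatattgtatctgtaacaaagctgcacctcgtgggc
KIF23: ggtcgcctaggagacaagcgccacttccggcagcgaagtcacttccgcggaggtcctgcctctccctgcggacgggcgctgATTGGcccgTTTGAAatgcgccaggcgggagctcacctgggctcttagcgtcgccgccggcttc
ASPM: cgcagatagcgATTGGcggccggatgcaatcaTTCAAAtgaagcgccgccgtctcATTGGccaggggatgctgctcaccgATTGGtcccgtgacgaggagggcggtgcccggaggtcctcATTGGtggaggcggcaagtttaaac
CCNB2: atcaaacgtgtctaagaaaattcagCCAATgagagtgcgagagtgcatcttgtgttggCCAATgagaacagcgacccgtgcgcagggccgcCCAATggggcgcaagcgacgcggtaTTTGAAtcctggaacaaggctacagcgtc
TACC3: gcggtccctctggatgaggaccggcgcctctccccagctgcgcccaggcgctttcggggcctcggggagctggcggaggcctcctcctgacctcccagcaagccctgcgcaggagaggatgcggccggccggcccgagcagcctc

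The table held 59 promoter entries of 300 bases (250 before to 50 after the start) for 46 of the 52 members. A CHR (TTTGAA or TTCGAA, either strand) was in 67.8% of the member entries and in 16.4% of all 35116 entries. CCAAT on either strand was in 72.9% of the member entries against 34.6% of all, and more than 1 CCAAT was in 42.4% against 10.8%. Both motifs stood together in 55.9% of member entries and 6.38% of all, and neither was in 15.3% against 55.4%. The matches also had a place: a CHR began within 60 bases before the start in 37.3% of member entries against 3.17% of all, and CCAAT within 120 bases before it in 66.1% against 20.7%. A match is a run of letters, not a measured binding site. FOXM1, AURKA, TPX2, UBE2C, BIRC5 and RACGAP1 were not matched to an entry.

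The reads on genes numbered 19960644 (CTL), 22467410 (CTL+dox), 26322847 (gRNA2) and 22168624 (gRNA2+dox). Levels below are CPM, that is reads scaled to a common library size, with TMM factors that even out library composition. A log2 ratio sets 1 library against another, and the interval after it is the exact 95% Clopper-Pearson interval of the reads, which covers counting error only. Genes are called lower or higher if the log2 ratio is at least 0.5 in size with an interval clear of 0. No test across cultures could be made. TCOF1, the targeted gene, had 1019 (CTL), 754 (CTL+dox), 1318 (gRNA2) and 437 reads (gRNA2+dox). Its log2 ratio was -1.34 (-1.50 to -1.18) in gRNA2+dox against gRNA2, and -0.58 (-0.71 to -0.44) in CTL+dox against CTL, so that it was also lower with doxycycline in the control cells.

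Checked against the labelled epithelial cancer line, all 8 epithelial and basal markers were abundant in every library, with sums from 16296 to 17662 CPM, and none was called in gRNA2+dox against gRNA2. The hormone receptor genes ESR1 and PGR had at most 13 and 7 reads, and ERBB2, which encodes HER2, had 270 to 387. ESR1, with 4 reads in gRNA2 and 13 in gRNA2+dox, was called higher against gRNA2 at 1.81 (0.26 to 4.03). The endothelial gene CDH5 had 0 reads in every library, which allows up to 0.1152 to 0.1469 CPM (3 counts), while the other 2 endothelial markers, VWF and PECAM1, had 15 to 28 and 3 to 12 reads. The white blood cell gene PTPRC had at most 2. CD68, CD14 and COL1A1 were detected, and the white blood cell markers summed to 105 to 127 CPM. Reads outside annotated genes took 12.5% of gRNA2+dox and 10.6% to 11.3% of the other libraries, and reads with several places 3.39% against 4.02% to 4.85%. The part of these shares in the results was not tested.

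The members stood lowest in gRNA2+dox. It was the lowest of the 4 libraries for 42 of 52 members, against 26.3% of all tested genes. CTL was lowest for 0 members (23.4% of all tested genes), CTL+dox for 4 (29.3%) and gRNA2 for 6 (21.0%). At the other end, the highest library was CTL for 18 members, CTL+dox for 23, gRNA2 for 9 and gRNA2+dox for 2. The shares of all tested genes were not computed for the highest library, so these counts have no background beside them. The 52 members summed to 1455 (CTL), 1450.4 (CTL+dox), 1405 (gRNA2) and 1251 CPM (gRNA2+dox). With gRNA2+dox over gRNA2 the sum had a log2 ratio of -0.17, over CTL+dox -0.21 and over CTL -0.22. CDC25B and CKAP5 hold 25.6% of the member reads, and without this pair the ratios of the sum were -0.24, -0.34 and -0.33 in the same order. Bulk RNA cannot tell fewer dividing cells from less of each RNA per cell.

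**Figure D1:**
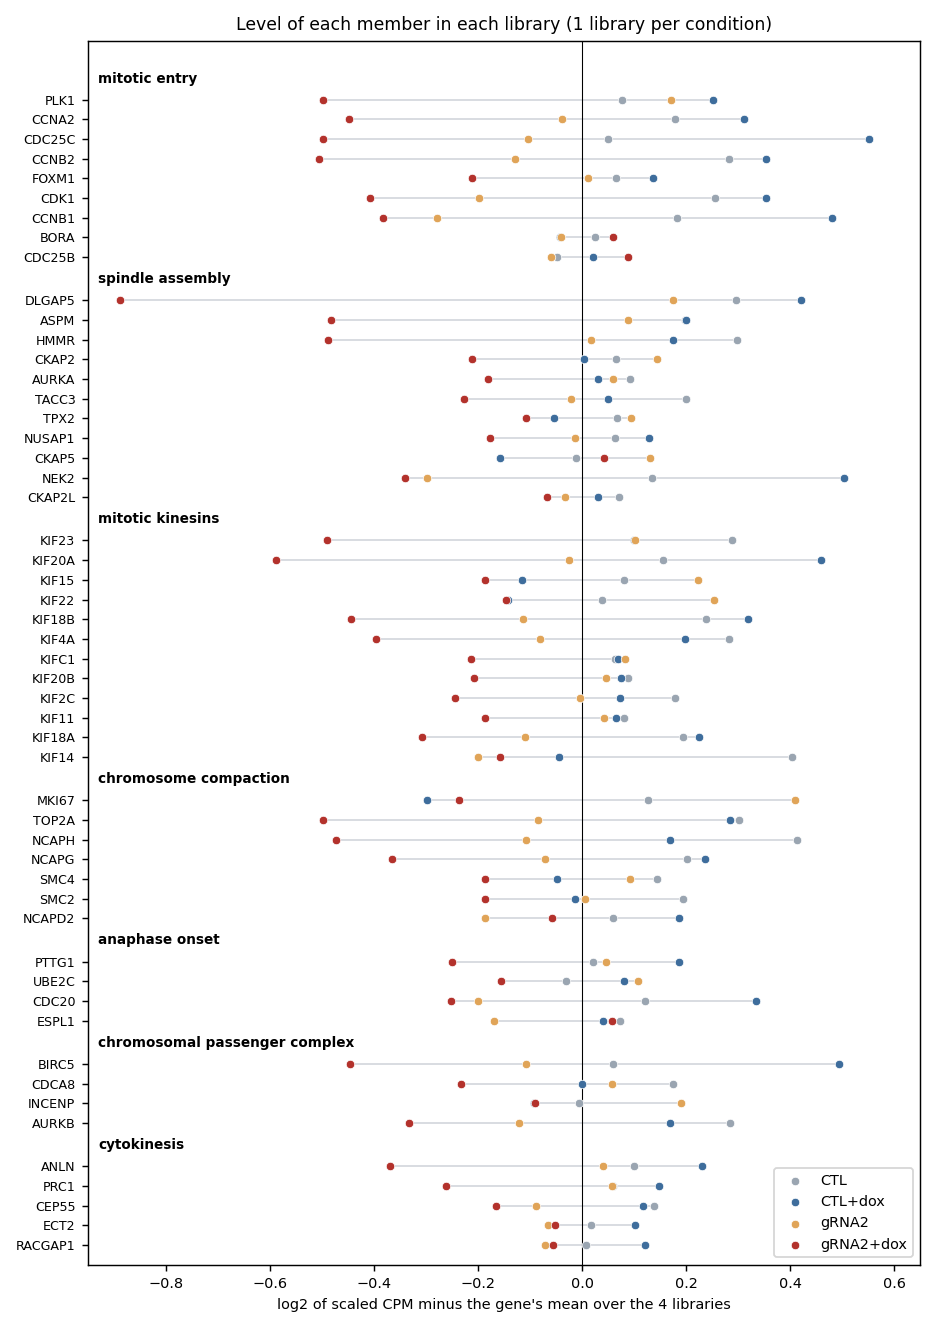
Level of each of the 52 members in each of the 4 libraries, as the log2 of scaled CPM minus the gene's own mean over the libraries (horizontal axis), by role (vertical axis); each point is 1 library. The gRNA2+dox point is the leftmost for 42 of 52 members, and the widest line is that of DLGAP5.

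In gRNA2+dox against gRNA2, the doxycycline comparison within the TCOF1 guide cells, 7 members were called lower (3.05% of all tested genes were) and 0 higher (2.08%). The ratio was below 0 for 45 of 52 (54.2% of all tested genes), with a median of -0.27 over the members and -0.02 over all tested genes. Against CTL+dox, which compares the 2 doxycycline libraries, 21 were called lower (5.04%), 0 higher (3.38%) and 46 lay below 0 (49.8%), with a median of -0.31 against 0.00. Against CTL, 19 were called lower (4.32%), 0 higher (2.42%) and 49 lay below 0 (48.3%), with a median of -0.38 against 0.01. These 3 comparisons share the gRNA2+dox library and are not independent of each other.

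The comparisons without gRNA2+dox were smaller. In CTL+dox against CTL, 0 members were called lower (2.04% of all tested genes) and 0 higher (1.74%), 26 lay below 0 (47.7%), and the median was -0.01. In gRNA2 against CTL, 2 were called lower (2.91%), KIF14 and NCAPH, and 0 higher (1.98%). There 41 of 52 lay below 0 (44.5%), with a median of -0.12 against 0.03, so that the guide cells without doxycycline already stood slightly below the control cells.

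**Figure D2:**
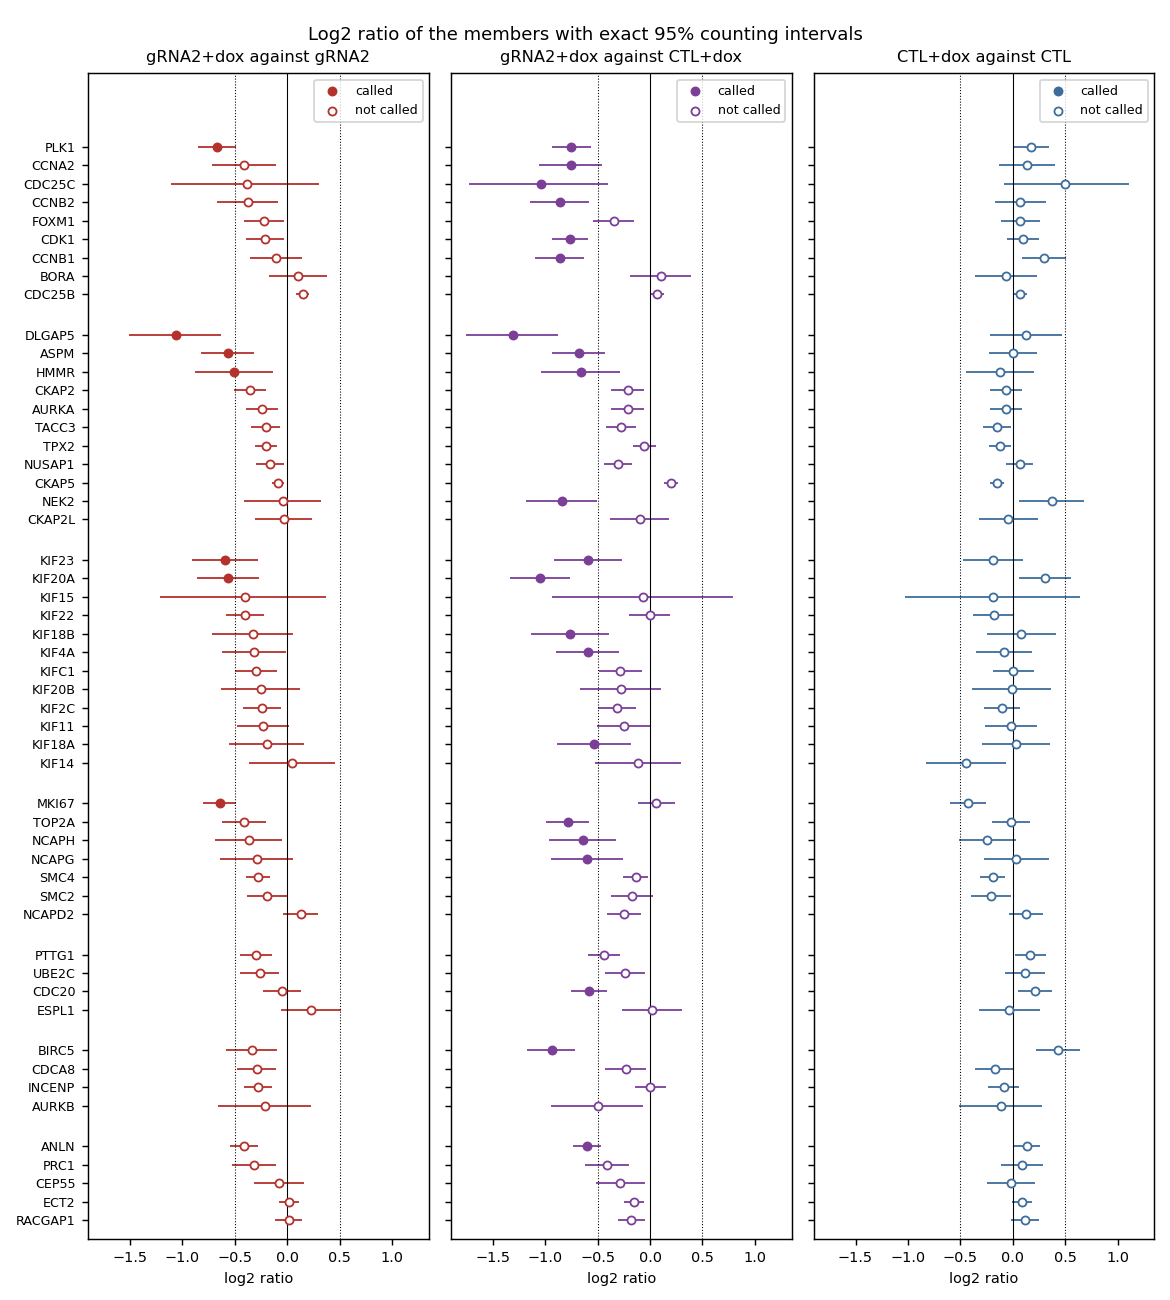
Log2 ratio (horizontal axis) of each member (vertical axis, grouped by role in the order of the text) with its exact 95% counting interval, for gRNA2+dox against gRNA2 (left), gRNA2+dox against CTL+dox (centre) and CTL+dox against CTL (right); filled points are called, and dotted lines mark 0.5 in each direction. Called points number 7, 21 and 0 in the 3 panels, all on the lower side.

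The members did not move by 1 common amount. Their log2 ratios had an SD across genes of 0.229 in gRNA2+dox against gRNA2 and 0.344 against CTL+dox, while the median counting standard errors were 0.105 and 0.104. The genes called lower in the first of these were DLGAP5, PLK1, MKI67, KIF23, ASPM, KIF20A and HMMR. At the other end stood ESPL1, CDC25B, NCAPD2, BORA and KIF14, with ratios from 0.04 to 0.23. The roles are taken in turn below. With 4 to 12 genes in a role, a count of 0 or 1 called cannot be told apart from the share of all tested genes.

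Of the 9 mitotic entry genes, 1 was called lower against gRNA2 (3.05% of all tested genes), 6 were against CTL+dox (5.04%) and 5 against CTL (4.32%). The medians were -0.22, -0.76 and -0.56. PLK1, the polo-like kinase that drives entry and spindle assembly, had 25.3 (CTL), 28.6 (CTL+dox), 27.0 (gRNA2) and 17.0 CPM (gRNA2+dox). The gRNA2+dox value was below the other 3, which lay close together. Its ratio was -0.67 (-0.86 to -0.49) against gRNA2 and -0.75 (-0.94 to -0.56) against CTL+dox, and 0.18 (0.01 to 0.35) for doxycycline in the control cells.

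The kinase CDK1 and the B cyclins differed from PLK1 in that gRNA2 itself stood low. In gRNA2 against CTL, CDK1 was at -0.45 (-0.62 to -0.29), CCNB1, a cyclin B, at -0.46 (-0.69 to -0.23) and CCNB2, the other mitotic cyclin B, at -0.41 (-0.67 to -0.16). Doxycycline within the guide cells then gave -0.21, -0.10 and -0.38, none called. Against CTL+dox the same genes were at -0.76 (-0.94 to -0.59), -0.86 (-1.10 to -0.63) and -0.86 (-1.14 to -0.58), all called lower. How low these genes stood in gRNA2+dox therefore depended on which library it was set against.

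CCNA2, the cyclin A of late S phase and early mitosis, was at -0.41 (-0.72 to -0.11) against gRNA2 and -0.76 (-1.06 to -0.46) against CTL+dox. FOXM1, a transcription factor for late cell cycle genes, was at -0.22 (-0.42 to -0.03) and -0.35 (-0.54 to -0.15), not called in either, and stranded columns held 18.4% more of its reads. The CDC25 phosphatases differed from each other. CDC25B, the member with most reads in this role, had 173 (CTL), 182 (CTL+dox), 172 (gRNA2) and 190.3 CPM (gRNA2+dox), the highest value being in gRNA2+dox, with a ratio of 0.15 (0.09 to 0.21) against gRNA2. CDC25C had 41 (CTL), 64 (CTL+dox), 47 (gRNA2) and 30 reads (gRNA2+dox), and its ratio of -1.04 (-1.73 to -0.40) against CTL+dox was called while that of -0.39 (-1.11 to 0.30) against gRNA2 was not. BORA, the Aurora A partner that helps activate PLK1, had 9.16 (CTL), 8.75 (CTL+dox), 8.75 (gRNA2) and 9.39 CPM (gRNA2+dox), a spread within its counting intervals. For CDC25C, BORA and CCNA2 the stranded columns together held 169%, 65.7% and 60% more reads than the unstranded column, from overlaps with genes on the other strand, where such a read is counted for both partners.

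Of the 11 spindle assembly genes, 11 lay below 0 against gRNA2 (54.2% of all tested genes). Called lower were 3 there (3.05%), 4 against CTL+dox (5.04%) and 3 against CTL (4.32%). DLGAP5, which stabilises the microtubule fibres that hold kinetochores, had 134 (CTL), 161 (CTL+dox), 157 (gRNA2) and 63 reads (gRNA2+dox), or 6.56 (CTL), 7.15 (CTL+dox), 6.03 (gRNA2) and 2.88 CPM (gRNA2+dox). The other 3 libraries lay close together and gRNA2+dox far below them, and its ratio of -1.06 (-1.51 to -0.63) against gRNA2 was the lowest among the members. Against CTL+dox it was -1.30 (-1.75 to -0.88).

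ASPM, which focuses spindle poles, had 15.1 (CTL), 15.1 (CTL+dox), 14.0 (gRNA2) and 9.43 CPM (gRNA2+dox), and the promoter printed above holds 4 CCAAT boxes and 1 CHR. The 3 other libraries lay together and gRNA2+dox stood below, at -0.57 (-0.82 to -0.32) against gRNA2 and -0.68 (-0.94 to -0.43) against CTL+dox. HMMR, a spindle orientation protein, had 7.74 (CTL), 7.10 (CTL+dox), 6.37 (gRNA2) and 4.49 CPM (gRNA2+dox), and its ratio of -0.50 (-0.88 to -0.14) against gRNA2 sat at the threshold: it was called with the TMM factors used here and not with DESeq2 size factors, where it was -0.49. Stranded columns held 29.4% more HMMR reads. Against CTL+dox HMMR was at -0.66 (-1.04 to -0.29).

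The most abundant spindle assembly gene by reads, CKAP5, a microtubule polymerase, had 174 (CTL), 157 (CTL+dox), 192 (gRNA2) and 181 CPM (gRNA2+dox), with ratios of -0.09 (-0.15 to -0.03) against gRNA2 and 0.20 (0.13 to 0.27) against CTL+dox, which point in opposite directions. Its partner TACC3, whose printed promoter holds neither motif, was at -0.20 (-0.34 to -0.07) and -0.28 (-0.42 to -0.14). The kinase AURKA was at -0.24 (-0.39 to -0.09) and -0.21 (-0.37 to -0.05), and its activator TPX2 at -0.20 (-0.30 to -0.10) and -0.05 (-0.16 to 0.05). The microtubule bundling protein NUSAP1 was at -0.17 and -0.31, CKAP2 at -0.35 and -0.21, and CKAP2L, whose interval held 0 in both, at -0.03 and -0.10. NEK2, a kinase that splits the centrosomes, was at -0.04 (-0.41 to 0.32) against gRNA2 but was called lower at -0.84 (-1.19 to -0.51) against CTL+dox, the library where it stood highest.

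The 12 kinesins, motors that walk along or take apart microtubules, were all below 0 against CTL+dox (49.8% of all tested genes). Against gRNA2, 11 of 12 lay below 0 (54.2%). The medians were -0.30 and -0.31 in that order. KIF20A, a motor of the central spindle, had 11.7 (CTL), 14.4 (CTL+dox), 10.3 (gRNA2) and 6.96 CPM (gRNA2+dox). Its printed promoter holds CCAAT but no CHR letters. The level was highest in CTL+dox and lowest in gRNA2+dox, with ratios of -0.56 (-0.86 to -0.27) against gRNA2 and -1.04 (-1.33 to -0.76) against CTL+dox. KIF23, the motor of the centralspindlin complex, had 10.5 (CTL), 9.23 (CTL+dox), 9.25 (gRNA2) and 6.14 CPM (gRNA2+dox), with gRNA2+dox below the other 3. The ratio was -0.59 (-0.91 to -0.28) against gRNA2 and -0.59 (-0.91 to -0.27) against CTL+dox.

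KIF2C, a microtubule depolymerase with the most reads of this role, had 27.4 (CTL), 25.4 (CTL+dox), 24.1 (gRNA2) and 20.4 CPM (gRNA2+dox), at -0.24 (-0.42 to -0.06) against gRNA2. KIF14, which acts in the last steps of division, had 6.41 (CTL), 4.71 (CTL+dox), 4.22 (gRNA2) and 4.35 CPM (gRNA2+dox), and here CTL stood apart from the other 3 libraries. Its ratio was -0.60 (-0.98 to -0.23) in gRNA2 against CTL and 0.04 (-0.37 to 0.45) in gRNA2+dox against gRNA2. The chromosome-arm motors KIF4A and KIF22 were at -0.31 and -0.40 against gRNA2, and at -0.59 (-0.90 to -0.29) and 0.00 (-0.20 to 0.19) against CTL+dox, where KIF4A was called.

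KIF11, the motor that pushes the spindle poles apart, was at -0.23 (-0.48 to 0.02) against gRNA2, and KIF15, which can work beside it, at -0.40 (-1.21 to 0.37) from at most 38 reads, too few to narrow the interval. The plus-end motors KIF18A and KIF18B were at -0.20 and -0.33, and were called lower against CTL+dox at -0.53 (-0.89 to -0.18) and -0.76 (-1.14 to -0.39). The minus-end motor KIFC1 was at -0.30 (-0.50 to -0.10) against gRNA2 and KIF20B at -0.25 (-0.63 to 0.12), and neither was called in any comparison.

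Of the 7 chromosome compaction genes, 1 was called lower against gRNA2 (3.05% of all tested genes) and 3 against CTL+dox (5.04%). The condensin I subunits NCAPD2, NCAPG and NCAPH did not move alike. NCAPD2 had 28.1 (CTL), 30.7 (CTL+dox), 23.7 (gRNA2) and 25.9 CPM (gRNA2+dox), with gRNA2 the lowest library, and was at 0.13 (-0.04 to 0.29) against gRNA2 and -0.25 (-0.41 to -0.08) against CTL+dox. NCAPG and NCAPH were at -0.29 (-0.65 to 0.05) and -0.36 (-0.69 to -0.05) against gRNA2, and were called lower against CTL+dox at -0.60 (-0.95 to -0.26) and -0.64 (-0.96 to -0.33). Stranded columns held 65.7% more NCAPG reads. NCAPH also stood lower in gRNA2 against CTL, at -0.52 (-0.80 to -0.25).

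The ATPase subunits SMC4 and SMC2 are shared with condensin II, and neither was called in any comparison. SMC4 had 60.8 (CTL), 53.2 (CTL+dox), 58.7 (gRNA2) and 48.4 CPM (gRNA2+dox), at -0.28 (-0.39 to -0.16) against gRNA2 and -0.14 (-0.26 to -0.02) against CTL+dox, and SMC2 was at -0.19 (-0.39 to 0.00) and -0.17 (-0.37 to 0.03). TOP2A, the topoisomerase that untangles sister chromatids, was at -0.41 (-0.62 to -0.20) against gRNA2 and was called at -0.78 (-0.99 to -0.58) against CTL+dox and -0.80 (-1.01 to -0.59) against CTL. The subunits particular to condensin II, which are not members, had a median of -0.12 against gRNA2. There 0 of 3 were called lower (3.05% of all tested genes).

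MKI67, whose product coats mitotic chromosomes and is the Ki-67 marker of dividing cells, differed from most members in its pattern. It had 634 (CTL), 521 (CTL+dox), 984 (gRNA2) and 527 reads (gRNA2+dox), or 31.0 (CTL), 23.1 (CTL+dox), 37.8 (gRNA2) and 24.1 CPM (gRNA2+dox). Both doxycycline libraries were low and gRNA2 was high, so that its ratio was -0.65 (-0.80 to -0.49) against gRNA2, 0.06 (-0.12 to 0.24) against CTL+dox and -0.42 (-0.59 to -0.26) in CTL+dox against CTL. KIF22 and INCENP also stood highest in gRNA2, with level doxycycline libraries (0.00 against CTL+dox) and smaller falls against gRNA2 (-0.40 and -0.28). MKI67 and ASPM are the members with transcripts of at least 8000 bases. Over the 1132 tested genes that long, the median was -0.06 in CTL+dox against CTL and 0.12 in gRNA2+dox against CTL+dox. Over the 13810 tested genes with a length it was 0.01 and 0.00. In gRNA2+dox against gRNA2 the median was -0.02 in both sets. ASPM was at 0.00 in CTL+dox against CTL and -0.68 in gRNA2+dox against CTL+dox, unlike the medians of the long genes.

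Transcript length moved with the doxycycline ratio of the control cells across members. The Pearson correlation of CTL+dox against CTL with length was -0.51 and the Spearman correlation -0.46 over 52 members, beside a Spearman correlation of -0.16 over the 13810 genes. For gRNA2+dox against gRNA2 the correlations over the members were -0.08 and 0.00, and for gRNA2+dox against CTL+dox they were 0.29 and 0.35, beside a Spearman correlation of 0.15 over the 13810 genes. The genes share their libraries, so these are descriptions. With the ratios centred by transcript length and GC content, gRNA2+dox had 7 members called lower against gRNA2 and 21 against CTL+dox, as many as without centring, and 17 against CTL.

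Among the 4 anaphase onset genes, 0 were called lower against gRNA2 (3.05% of all tested genes) and 1 against CTL+dox (5.04%). PTTG1, the securin that holds separase inactive, had 33.2 (CTL), 37.2 (CTL+dox), 33.8 (gRNA2) and 27.5 CPM (gRNA2+dox), at -0.30 (-0.45 to -0.14) and -0.44 (-0.59 to -0.28). Its target ESPL1, the protease separase, had 9.30 (CTL), 9.10 (CTL+dox), 7.87 (gRNA2) and 9.20 CPM (gRNA2+dox): gRNA2 was the lowest library and the other 3 lay together, giving 0.23 (-0.06 to 0.51) against gRNA2, the highest ratio of the 52, with an interval that held 0. CDC20, the activator of the anaphase-promoting complex, was at -0.05 (-0.23 to 0.13) against gRNA2 and was called at -0.58 (-0.76 to -0.41) against CTL+dox. UBE2C, its ubiquitin-conjugating enzyme, was at -0.26 (-0.45 to -0.08) and -0.24 (-0.43 to -0.05).

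The chromosomal passenger complex corrects the attachment of chromosomes to the spindle. Its 4 genes lay in a narrow band against gRNA2, from -0.34 to -0.21, and 0 were called lower (3.05% of all tested genes). INCENP, the scaffold, had 36.4 (CTL), 34.3 (CTL+dox), 41.8 (gRNA2) and 34.4 CPM (gRNA2+dox), with gRNA2 the highest library, at -0.28 (-0.42 to -0.15) against gRNA2 and 0.00 (-0.14 to 0.15) against CTL+dox. BIRC5, survivin, stood highest in CTL+dox, and was at -0.34 (-0.58 to -0.10) against gRNA2 but called at -0.94 (-1.17 to -0.71) against CTL+dox. AURKB, the kinase, was at -0.21 (-0.66 to 0.23) and, just short of the threshold, -0.50 (-0.94 to -0.07), and CDCA8, borealin, at -0.29 (-0.48 to -0.10) and -0.23 (-0.43 to -0.04).

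Of the 5 cytokinesis genes, 0 were called lower against gRNA2 (3.05% of all tested genes) and 1 against CTL+dox (5.04%). ANLN, anillin, which organises the contractile ring, was at -0.41 (-0.55 to -0.28) against gRNA2 and called at -0.60 (-0.74 to -0.47) against CTL+dox, with 9.72% more reads in the stranded columns. PRC1, which bundles the central spindle, was at -0.32 (-0.53 to -0.11) and -0.41 (-0.62 to -0.20), and stranded columns held 58.5% more of its reads. ECT2, the exchange factor that switches on RhoA at the furrow, had 79.2 (CTL), 83.9 (CTL+dox), 74.8 (gRNA2) and 75.5 CPM (gRNA2+dox), at 0.01 (-0.08 to 0.11) against gRNA2 and -0.15 (-0.25 to -0.06) against CTL+dox. RACGAP1, the partner of KIF23 in centralspindlin, was at 0.01 (-0.11 to 0.14) against gRNA2, so that the subunits of this complex had different ratios. CEP55, which brings the abscission machinery to the midbody, was at -0.08 (-0.31 to 0.16) and -0.28 (-0.52 to -0.05).

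Doxycycline was also set against itself in the 2 kinds of cell. The log2 doxycycline ratio was lower in gRNA2 than in CTL cells for 45 of 52 members (54.1% of all tested genes), with a median difference of -0.23 over the members and -0.02 over all tested genes. The 95% counting interval of the difference lay below 0 for 20 members (15.3%). Across the members, the ratio in gRNA2 cells had a Pearson correlation of 0.00 with that in CTL cells. This pair shares no library. The same genes correlated at 0.52 (Spearman 0.56) between gRNA2 against CTL and gRNA2+dox against CTL+dox, beside 0.25 (Spearman 0.31) over all tested genes, and those comparisons also share no library. A member that stood low in the guide cells without doxycycline tended to do so with it.

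**Figure D3:**
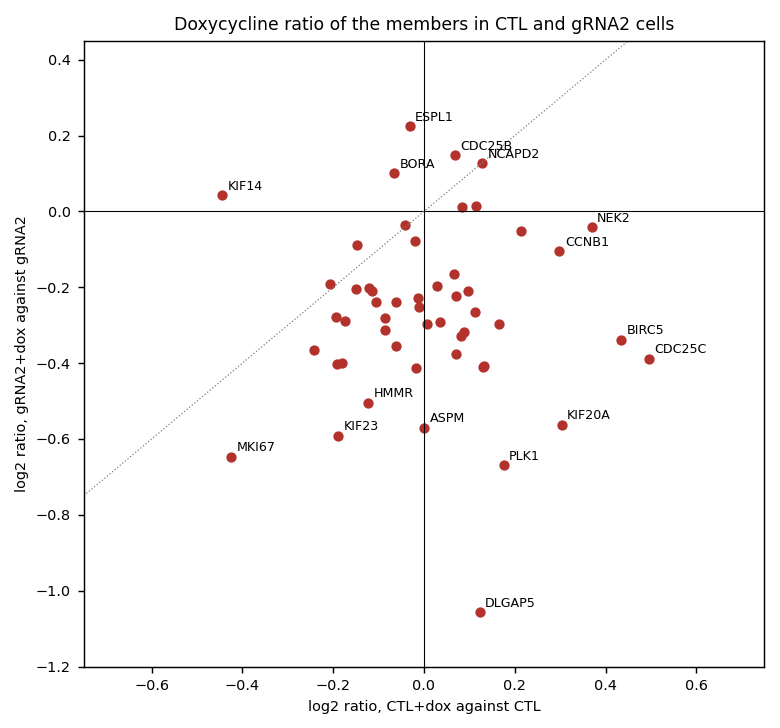
Log2 ratio of CTL+dox against CTL (horizontal axis) and of gRNA2+dox against gRNA2 (vertical axis) for the 52 members, each point 1 gene; the dotted line marks equal ratios, and members far from the centre are named. 45 of 52 points lie below the dotted line and 45 of 52 below 0 on the vertical axis.

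Levels per length put the members in a different order from reads. By mean CPM per kilobase of the canonical transcript over the 4 libraries, CDC25B was highest at 57.5, followed by PTTG1 at 46.1, UBE2C at 26.8 and CKAP5 at 24.6. KIF15 was lowest at 0.264, next to KIF14 at 0.675. DLGAP5 stood at 1.96, PLK1 at 11.3 and MKI67 at 2.28. Across members the Pearson correlation of the ratio with the log2 of mean reads was 0.258 against gRNA2 and 0.437 against CTL+dox. Members with more reads thus tended to have ratios nearer to or above 0.

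Members with and without the promoter letters were set side by side. The 36 members with a CHR had a median log2 ratio of -0.29 against gRNA2 with 6 called lower. The 10 without had -0.27 with 1 called lower. Of all tested genes, 3.05% were called lower there. Against CTL+dox the medians were -0.28 and -0.57. For CCAAT, the 38 members with it had -0.29 against gRNA2 and -0.47 against CTL+dox, and the 8 without had -0.29 and -0.25. TACC3, CKAP2 and KIF2C, which have neither, had a median of -0.24 against gRNA2, and 0 of 3 were called in any comparison. With 3 genes, that count cannot be told apart from the shares of all tested genes.

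Other parts of the division cycle were described beside the members, and genes named from them below other than NUF2, CENPF and KIF26B were picked after their values were seen. The kinetochore and checkpoint genes, which attach chromosomes to the spindle and monitor the attachment, resembled the members. Their medians were -0.22 against gRNA2 and -0.35 against CTL+dox, beside -0.27 and -0.31 for the members. Against CTL+dox, 8 of 20 were called lower, beside 21 of 52 members and 5.04% of all tested genes. Against gRNA2, 2 of 20 were, beside 7 of 52 members and 3.05% of all tested genes. Low levels in gRNA2+dox were thus not particular to the members. The kinetochore genes called against gRNA2 were NUF2, a part of the kinetochore's microtubule attachment complex, at -0.61 (-1.21 to -0.04), and CENPF, at -0.69 (-0.92 to -0.46). NUF2 was also called lower in gRNA2 against CTL, at -0.57 (-1.04 to -0.10). CENPF was also called lower in CTL+dox against CTL, at -0.65 (-0.89 to -0.42), so that, like MKI67, it stood low in both doxycycline libraries. The DNA replication genes had medians of -0.13 and -0.16, with 0 of 19 called against gRNA2 and 2 against CTL+dox, RRM2 at -0.72 and GINS2 at -0.52. The cyclins and kinases of the first cell cycle gap had -0.15 and -0.19, with 0 of 7 called in either.

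The remaining lists had medians nearer to 0 than that of the members in both comparisons. The anaphase-promoting complex subunits had medians of 0.09 against gRNA2 and -0.03 against CTL+dox, and the cohesin genes -0.06 and 0.09, where NIPBL, the cohesin loader, was called higher against CTL+dox at 0.55 and lower in CTL+dox against CTL at -0.53 (-0.65 to -0.42), CTL+dox being its lowest library by reads. The interphase kinesins, which are not members, had -0.07 and 0.15. KIF26B, which stood lowest among them, was called lower in both comparisons, from 51 reads in gRNA2 and 77 in CTL+dox to 18 in gRNA2+dox. It was also called lower in gRNA2 against CTL, at -0.84 (-1.40 to -0.31), and so stood low before doxycycline. The tubulins had -0.11 and -0.02, with TUBA1A called lower against CTL+dox at -0.96, the DREAM and MuvB subunits -0.07 and -0.02, and the CDK inhibitors 0.01 and -0.09. These lists are described, not tested, against the members.

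**Figure D4:**
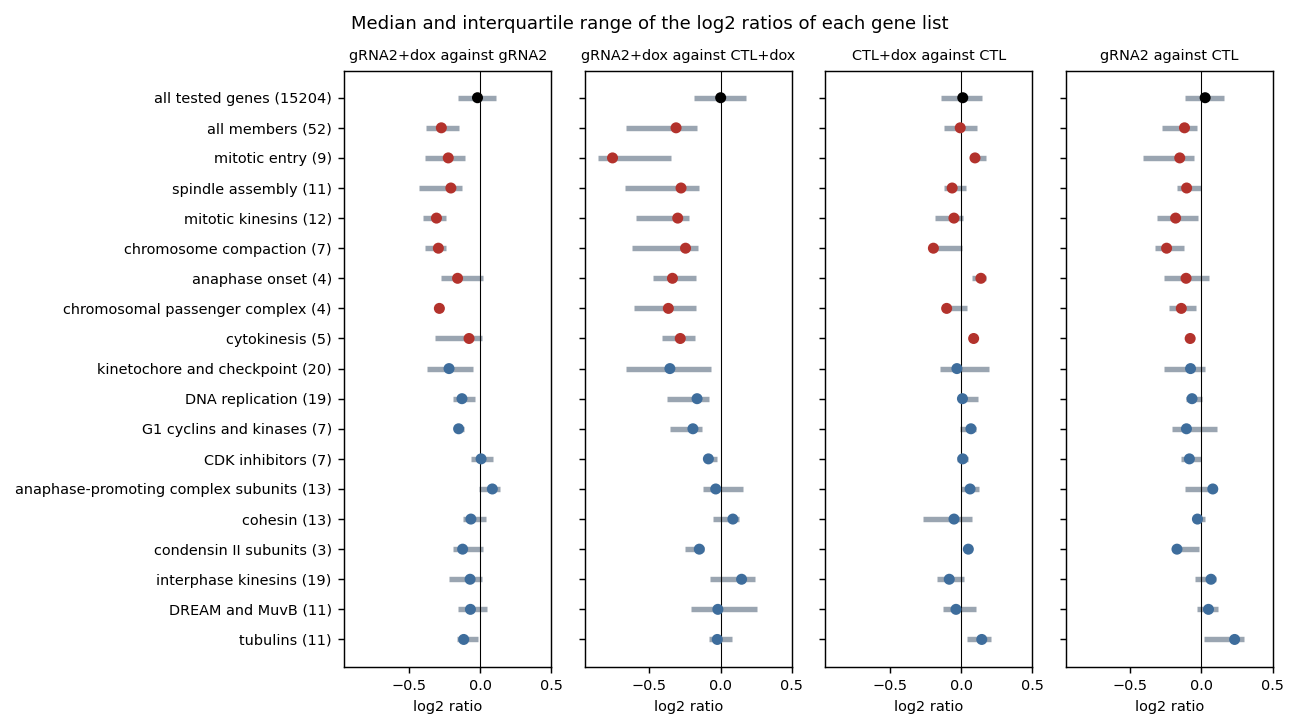
Median (point) and interquartile range (bar) of the log2 ratios of each gene list (vertical axis, number of tested genes in parentheses) in 4 comparisons (panels); black is all tested genes, red the members and their roles, blue other lists. The red medians lie below 0 in both panels that hold gRNA2+dox.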

How the data were processed

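RNA was measured in 4 libraries, 1 per condition. The authors trimmed adaptors, aligned the reads with STAR (hg38 by the submitters' processing notes, annotation not given in the sources used here) and deposited raw counts of reads per gene, not normalized. STAR counts reads that map to 1 place and sets aside reads over overlapping genes. The unstranded column was used.

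Counts were scaled with edgeR 4.0.16 (TMM over all genes, R 4.3.3). A prior count of 0.5 entered the log2 ratios. Kept were genes reaching 10 counts in any library. Exact 95% Clopper-Pearson intervals (Python 3.11.15, scipy 1.17.1) stand in for the study's posterior bound, and cover counting error only. The scripts were tested on simulated data. Precision follows the reads on each gene, with 19960644 to 26322847 reads on genes per library.

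The members and the lists were chosen with earlier results of these data known. Values in every library are given for TCOF1, for members called in the same direction against both gRNA2 and CTL+dox, for the 5 lowest and 5 highest ratios against gRNA2 and for the member with most reads in each role. From each of the other lists, the rule named up to 2 genes called against gRNA2 with the largest change, which gave NUF2, CENPF and KIF26B. RRM2, GINS2, NIPBL and TUBA1A fall outside this rule and were named after their values were seen. Transcript lengths and GC content come from GENCODE 44 lifted to GRCh37, matched by symbol for 90.8% of tested genes. Promoters come from RefSeq GRCh38.p14. Protein motifs were not analysed here, and 1 marker gene is not reported here. Alternatives covered scaling, filter, prior count, depth, strand and the call rule, and centring by length and GC content, TMM over the tested genes and the sum without CDC25B and CKAP5 were added after the data were seen.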

Additional observations from a re-analysis of the deposited data

Results flagged for a closer look

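In 5 members the log2 ratio with doxycycline had opposite signs in the gRNA2 and CTL cells, with counting intervals on opposite sides of 0. The share of all tested genes that do so was not computed, so this count has no background beside it. In CTL cells the lower bound of the interval was close to 0 for PLK1 (0.006), ANLN (0.006) and PTTG1 (0.018). With bounds this close to 0, whether these intervals clear 0 depends on the scaling chosen. The CTL ratio itself stayed above 0 over the alternatives run for PLK1 (0.12 to 0.18) and PTTG1 (0.03 to 0.17). ANLN was not followed over them. The difference between the cells was not tested, since each condition had 1 library. PLK1 was at -0.67 in gRNA2 cells and 0.18 in CTL cells, a difference of -0.84. KIF20A was at -0.56 and 0.30, a difference of -0.87. BIRC5 was at -0.34 and 0.43, a difference of -0.77. ANLN was at -0.41 and 0.13, a difference of -0.54. PTTG1 was at -0.30 and 0.17, a difference of -0.46.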

How the results depend on the processing

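No paired analysis was possible because conditions were sequenced once each, and no library could be left out. The median log2 ratio of the members stayed between -0.28 and -0.23 against gRNA2, between -0.34 and -0.31 against CTL+dox and between -0.43 and -0.37 against CTL over the alternatives run. With total counts only, the summed reads gave -0.24 against CTL+dox, -0.27 against CTL, -0.0339 in CTL+dox against CTL and -0.10 in gRNA2 against CTL, where 4 members were called lower. Thinned to the smallest total, gRNA2 against CTL gave -0.0803 for the sum and 4 members called lower, and TMM over the tested genes gave -0.0799 for that sum. Without CDC25B and CKAP5 the sum gave -0.24 against gRNA2, -0.34 against CTL+dox, -0.33 against CTL and -0.0901 in gRNA2 against CTL. A log2 ratio of at least 1 left 1 member called lower against gRNA2, 3 against CTL+dox, 1 against CTL and 0 in gRNA2 against CTL. A log2 ratio of at least 0.3 called 17 lower against gRNA2, 30 against CTL, 2 lower and 3 higher in CTL+dox against CTL and 11 lower in gRNA2 against CTL. An assumed coefficient of variation of 0.1 between cultures left 6, 20 and 17 called lower against gRNA2, CTL+dox and CTL. The shares of all tested genes were not computed under these other call rules. The counts therefore show only how the number of members called depends on the rule. HMMR against gRNA2 was not called with DESeq2 1.42.0 size factors, with a prior count of 5 (-0.49 each) or with TMM over the tested genes. Among the genes whose values are given in every library by the naming rule, no called ratio changed its direction, and the other called members were followed by their counts. The median in CTL+dox against CTL, near 0, lay between -0.03 and 0.00. The protein motifs planned were not run. Depth limits CDC25C, with 30 to 64 reads, and KIF15, with 24 to 38.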
